A study of Homo sapiens with 2 samples.

Results

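Occupancy of NRF-1 was examined at the genes that encode NRF-1 itself and the regulators that act beside it in mitochondrial biogenesis. The 9 genes were NRF1, GABPA, GABPB1, PPARGC1A, PPARGC1B, PPRC1, ESRRA, YY1 and CREB1, of 19794 protein-coding genes annotated on chromosomes 1 to 22, X and Y of hg19. They were chosen by name for their known role and not by a cutoff on values measured here, though earlier results of these data were known. The promoter of a gene took in 1 kb upstream and 1 kb downstream of each of its coding transcript starts in GENCODE release 44 lifted to hg19. A gene-body peak was one that overlapped the gene but none of its promoter windows.

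The data came from chromatin immunoprecipitation with an antibody against NRF-1 in the established human glioblastoma line U251 after transfection with siControl or with siAATF. AATF is a transcriptional cofactor, and the comparison addressed whether its depletion altered where NRF-1 is found. Both groups are otherwise the same line, and the text of the series names U138 where each sample label names U251. There was 1 peak list per condition, with no further list from a replicate, so no spread between replicates and no test between conditions could be computed. The amount of AATF and the cell type markers were not part of the lists.

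NRF-1 binds GC-rich palindromic sites near the starts of many nuclear genes whose products are needed by mitochondria, and it should not be confused with NFE2L1, which is also abbreviated NRF1. GABP, also called NRF-2, is an ETS factor made of the DNA-binding subunit GABPA and the partner subunit GABPB1, and it is distinct from NFE2L2. The coactivators encoded by PPARGC1A, PPARGC1B and PPRC1 do not bind DNA themselves but are recruited by NRF-1, GABP, the nuclear receptor ERRα (ESRRA) and YY1. CREB1 activates PPARGC1A transcription in response to cAMP.

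The siControl list held 18014 peaks, of which 11695 lay at promoters, and the siAATF list held 18454, of which 11648 lay at promoters. For each peak the lists give a fold enrichment over the local background and the −log10 q that the peak caller MACS2 assigned. Fold enrichment ran from 1.45 to 14.9 in siControl and from 1.43 to 13.8 in siAATF, and −log10 q from 1.03 to 116 and from 1.02 to 104. Because both values depend on the depth of each library, which is unknown, peaks were compared between lists only by percentile rank within the list they came from, where 100 is the strongest peak.

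The NRF-1 recognition sequence was searched in the promoter peaks of the 9 genes first. GCGCATGCG, the centre of the NRF-1 palindrome, and GCGCANGCG, in which the N stands for any base and which therefore includes the former, were searched on both strands as exact matches. These 4 stretches are shown because they hold every match found in the siControl promoter peaks of the 9 genes. They are written 5′ to 3′ on the strand of the gene, from the GRCh37 primary assembly, with the matching word in capitals.
NRF1, chr7:129251231-129251359, plus strand: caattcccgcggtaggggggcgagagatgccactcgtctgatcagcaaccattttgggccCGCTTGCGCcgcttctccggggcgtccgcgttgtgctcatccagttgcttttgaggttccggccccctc
GABPA, chr21:27107467-27107496, plus strand: ttgctctgtaCGCATGCGCtctttgagtgg
GABPB1, chr15:50647606-50647720, minus strand: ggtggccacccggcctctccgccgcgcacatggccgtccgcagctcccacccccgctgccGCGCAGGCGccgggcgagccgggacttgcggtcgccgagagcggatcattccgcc
ESRRA, chr11:64072843-64072971, plus strand: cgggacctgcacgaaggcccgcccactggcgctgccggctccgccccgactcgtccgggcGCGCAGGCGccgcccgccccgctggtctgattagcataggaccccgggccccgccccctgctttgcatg

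Distances of words from the canonical transcription start are given to the middle of the word throughout. The GABPA word is the exact GCGCATGCG core, read on the other strand, and lies 198 bp downstream of the canonical transcription start, in the 5′ UTR. The words of NRF1, GABPB1 and ESRRA have another base at the centre and lie upstream of the canonical start, by 266, 261 and 89 bp. In ESRRA the word lies 1 bp from the midpoint of the siControl peak, in GABPB1 79 bp and in GABPA 89 bp. In NRF1 it lies 393 bp from the midpoint and 134 bp inside the upstream edge of the peak. The siControl promoter peaks of PPARGC1B, PPRC1, YY1 and CREB1 held no GCGCANGCG.

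To set these matches beside a background of fixed length, 600 bp centred on each peak midpoint were searched. Within this window GCGCANGCG was found in 3 of the 8 genes with a siControl promoter peak (GABPA, GABPB1 and ESRRA, 37.5%), against 25.2% of the 12095 coding genes with such a peak. The exact core was found in 1 of the 8 (12.5%), against 6.04%. Counted over peaks, 22.3% of the 11695 siControl promoter peaks held GCGCANGCG and 5.23% held the core. A match describes the letters in the window only.

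NRF-1 peaks were called at the promoters of 8 of the 9 genes in siControl (88.9%, exact Clopper-Pearson 95% CI 51.8 to 99.7), beside 61.1% of all coding genes. In siAATF all 9 had a promoter peak (95% CI 66.4 to 100), beside 60.7% of coding genes. The same 8 genes had promoter peaks that overlapped between the lists by at least 1 base, beside 59.4% of coding genes. The exception was PPARGC1A, which had a promoter peak in siAATF alone, as did 1.17% of coding genes. A promoter peak in siControl alone was found for 0 of the 9 genes (95% upper bound 33.6%), beside 1.62% of coding genes. These intervals cover counting error only, and genes are not replicates of a condition.

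**Figure D1:**
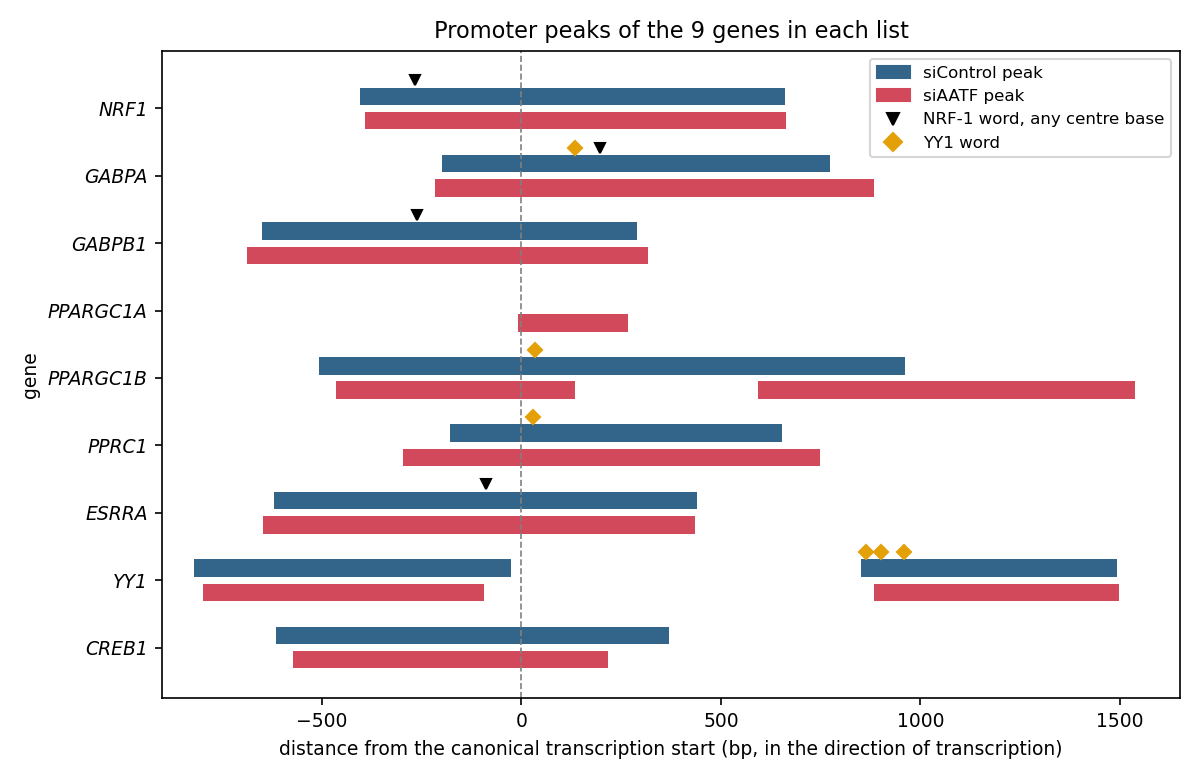
Promoter peaks of the 9 genes, as bars from peak start to peak end against distance from the canonical transcription start in bp (dashed line at 0), with siControl above siAATF for each gene. Triangles mark GCGCANGCG and diamonds AAGATGGCG, both in either orientation, and the plot shows the PPARGC1A peak in siAATF alone, the siControl peak of PPARGC1B beside 2 siAATF peaks, and 2 peaks on either side of the YY1 start.

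By −log10 q, the strongest promoter peaks of the group belonged to NRF1, ESRRA and GABPB1 in both lists. By fold enrichment the highest was GABPB1 in siControl (8.91) and CREB1 in siAATF (8.58). NRF1 encodes the immunoprecipitated factor. Its siControl peak, chr7:129251157-129252220, spanned 1064 bp from 404 bp upstream to 659 bp downstream of the start, covering the untranslated first exon and part of the first intron. It was 96th of the siControl promoter peaks by −log10 q (95.5), with a fold enrichment of 8.24. Its siAATF peak, chr7:129251170-129252223, was 106th of the siAATF promoter peaks (−log10 q 85.5), with a fold enrichment of 8.03. The edges of the NRF1 peak were nearly the same in both lists, with 1051 bp shared by peaks of 1064 and 1054 bp.

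ESRRA, the gene of the nuclear receptor ERRα, was 165th by −log10 q in siControl (91.5) and 147th in siAATF (83.4). Its peaks, chr11:64072375-64073436 and chr11:64072347-64073431, had fold enrichments of 8.0 and 7.43 and shared 1057 bp. GABPB1, the partner subunit of GABP, had a fold enrichment of 8.91 and a −log10 q of 74.7 in siControl (chr15:50647107-50648046). In siAATF its values were 8.26 and 62.3 (chr15:50647079-50648083). The starts of the long non-coding genes GABPB1-AS1 and GABPB1-IT1 also lay inside the GABPB1 peak or within 1 kb of it. Occupancy there thus cannot be assigned to GABPB1 alone. The peaks of NRF1 and CREB1 and the upstream peak of YY1 likewise each had such a start inside them or within 1 kb. In each case it was that of a long non-coding gene without a symbol, in both lists.

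GABPA, the DNA-binding subunit of GABP, lay below these 3 genes by −log10 q, with 38.2 in siControl (chr21:27107084-27108056) and 31.8 in siAATF (chr21:27107067-27108165). By fold enrichment it was close to NRF1 and ESRRA in siControl, at rank 80.1 beside 83.3 and 80.2. The rank by −log10 q set the genes apart, at 80.4 for GABPA beside 99.5 for NRF1 and 99.0 for ESRRA. A coding start of ATP5PF, which encodes a subunit of the ATP synthase, also lay inside the GABPA peak or within 1 kb of it. Occupancy there thus cannot be assigned to either gene alone.

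CREB1, the cAMP-responsive factor, had a siControl peak at chr2:208394070-208395055 with a fold enrichment of 7.34 and a −log10 q of 24.4. Its siAATF peak, chr2:208394113-208394902, had values of 8.58 and 28.6. The CREB1 peaks held none of the words searched, for NRF-1 or for the other factors, and it followed GABPA in the order by −log10 q in both lists.

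The coactivator genes had weaker peaks than the DNA-binding factors NRF1, GABPA, ESRRA and CREB1 in both lists. This did not extend to YY1, also a DNA-binding factor, whose strongest peak had a −log10 q of 10.1 in siControl, below PPARGC1B at 14.1, and 15.9 in siAATF, above PPARGC1B at 14.96. PPRC1 had a −log10 q of 7.44 in siControl (chr10:103892619-103893450, fold enrichment 5.54) and 5.47 in siAATF (chr10:103892499-103893545, fold enrichment 4.73). PPARGC1B had 1 broad siControl peak of 1470 bp at chr5:149109365-149110834, with a fold enrichment of 5.23 and a −log10 q of 14.1. This peak was wider than most, at rank 97.6 of the siControl list by width. In siAATF it was met by 2 separate peaks, one of 600 bp over the start (chr5:149109408-149110007, fold enrichment 5.49, −log10 q 14.96) and one of 945 bp in the first intron (chr5:149110467-149111411, fold enrichment 4.35, −log10 q 9.17).

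PPARGC1A encodes PGC-1α, the best known coactivator of the group. The nearest siControl peak lay 44930 bp from its canonical start. In siAATF a peak of 276 bp, chr4:23891403-23891678, ran from 8 bp upstream to 267 bp downstream of that start and covered the first exon. It was weak, with a fold enrichment of 4.12 (rank 21.9), a −log10 q of 2.60 (rank 14.3) and place 10935 among the 11648 siAATF promoter peaks. Its GC content was 55.8%, beside a median of 67.4% over siAATF promoter peaks, and it held none of the words searched. Among the 2196 siAATF promoter peaks with a −log10 q under 5, 17.8% had no overlapping siControl peak.

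YY1, a zinc-finger factor, was the only gene of the 9 with 2 promoter peaks in both lists, and neither peak covered its canonical start. The upstream peak had a −log10 q of 10.1 in siControl (chr14:100704661-100705454, fold enrichment 4.84) and 10.4 in siAATF (chr14:100704683-100705387, fold enrichment 4.53). The downstream peak, in the first intron, had a −log10 q of 8.21 in siControl (chr14:100706332-100706973, fold enrichment 4.49) and 15.9 in siAATF (chr14:100706364-100706977, fold enrichment 5.59). The stronger of the 2 was thus the upstream peak in siControl and the downstream peak in siAATF. The GC content of these peaks was 78.6 to 80.5%, and the siControl peaks were at rank 97.9 by GC content among siControl promoter peaks.

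**Figure D2:**
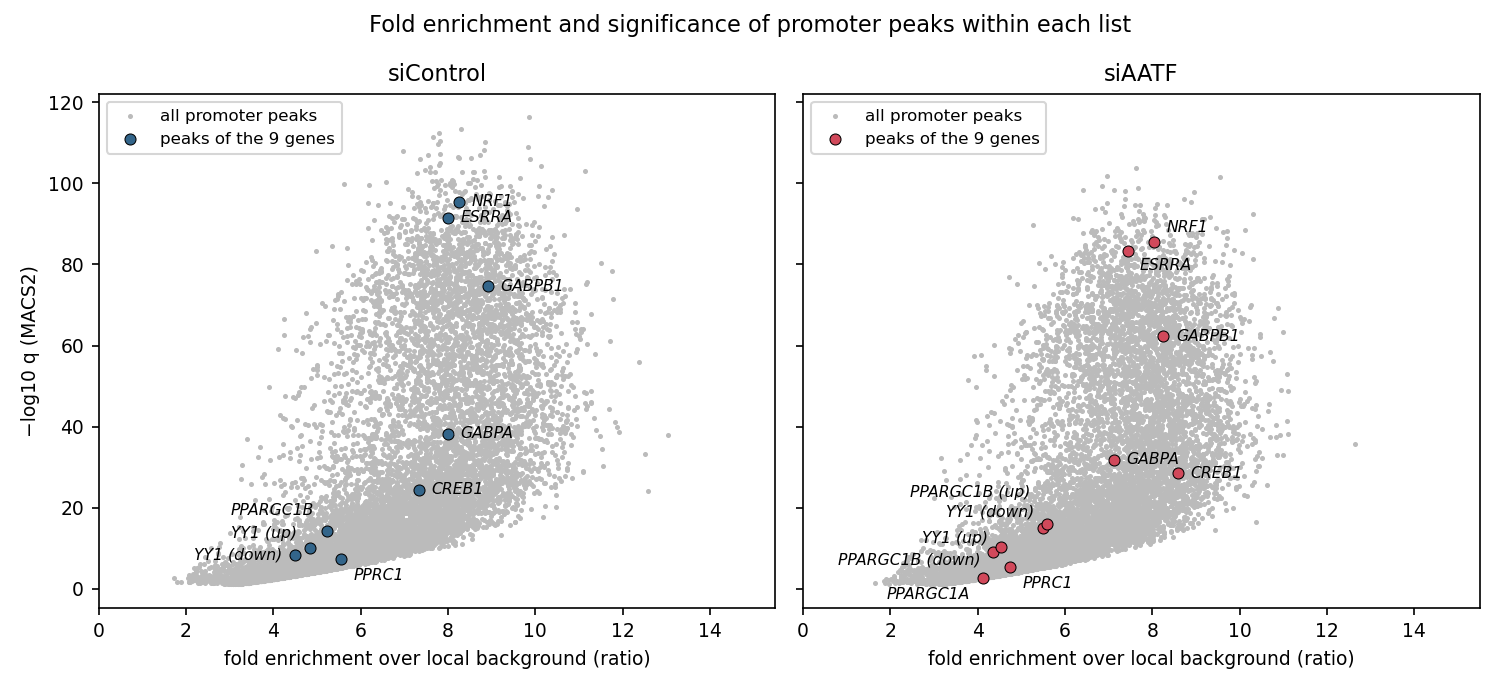
Fold enrichment (x axis, ratio) against −log10 q (y axis) of promoter peaks in the siControl list (left) and the siAATF list (right), with all promoter peaks in grey and peaks of the 9 genes in colour, where up and down mark the upstream and downstream peak of a gene. NRF1, ESRRA and GABPB1 stand at a −log10 q of 62.3 to 95.5, GABPA and CREB1 at 24.4 to 38.2, and peaks of PPRC1, PPARGC1B, YY1 and PPARGC1A at 15.9 or less.

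The order of the genes by −log10 q was then set beside the presence of the NRF-1 word. Searched over the whole siControl promoter peak, the 4 genes with GCGCANGCG, NRF1, ESRRA, GABPB1 and GABPA, had a −log10 q of 38.2 to 95.5. The 4 genes without it, CREB1, PPARGC1B, YY1 and PPRC1, had values of 7.44 to 24.4 for their strongest peak. These ranges did not overlap for whole peaks. They did within 600 bp of sequence centred on the midpoint, where NRF1, at 95.5 the highest of the 8, held no GCGCANGCG. In this same 600 bp window, the share of promoter peaks with GCGCANGCG was higher in the more significant peaks of the whole siControl list. It was 82.9% of 1170 peaks in the highest decile by −log10 q, which held NRF1, GABPB1 and ESRRA, and 30.8% in the decile with GABPA. It was 15.3% in the decile with CREB1, 7.44% with PPARGC1B, 5.65% with YY1 and 3.93% with PPRC1. Peak width and depth also enter −log10 q, and their part in this order was not tested.

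**Figure D3:**
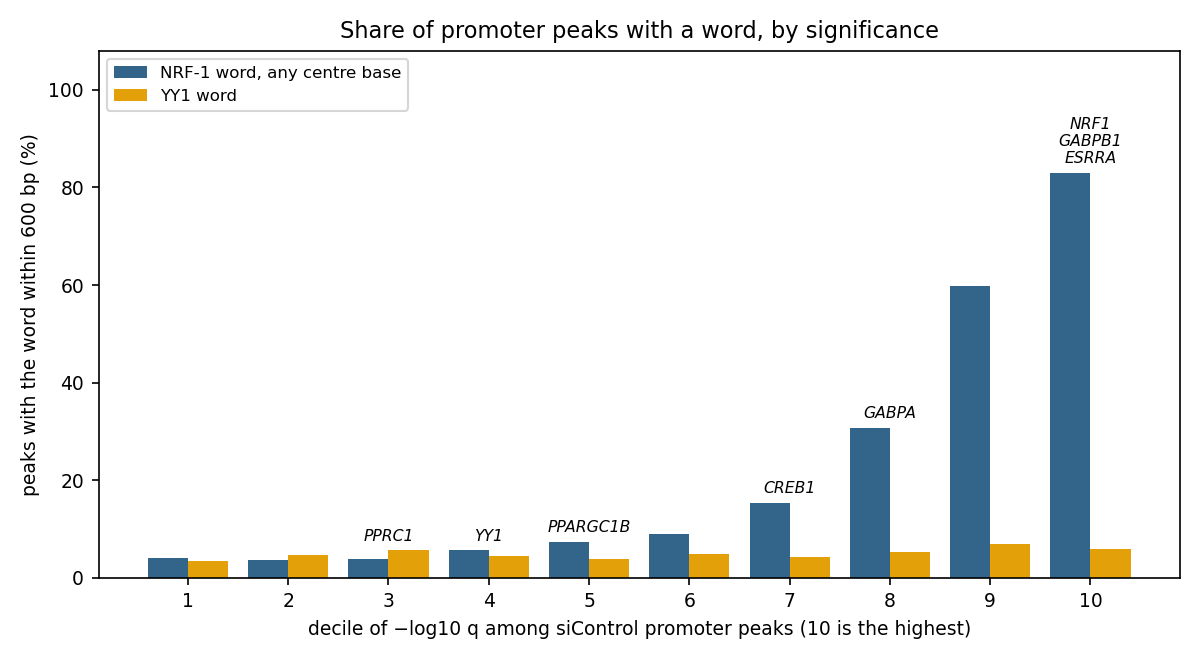
Share of siControl promoter peaks (y axis, percent) with GCGCANGCG (blue) or AAGATGGCG (yellow) within 600 bp centred on the midpoint, for deciles of the list by −log10 q (x axis, 10 the most significant), with each of the 8 genes with a siControl peak written above the decile of its strongest peak. The blue bars run from 3.68% to 82.9%, and the yellow bars stay between 3.50% and 7.01%.

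The words of the other factors in the group were then searched on both strands in the same promoter peaks. They were CCGGAAG for the ETS factor GABP, TGACGTCA for CREB1, AAGATGGCG for YY1 and TCAAGGTCA for ERRα. None of these words contains another or the NRF-1 word, and no matches overlapped in the peaks of the 9 genes. The stretches with AAGATGGCG and TGACGTCA are shown because they were found at the genes of the coactivators, of GABPA and of YY1 itself.
PPARGC1B, chr5:149109893-149109922, plus strand: ccgcggctggAAGATGGCGgggaacgactg
PPRC1, chr10:103892813-103892842, plus strand: ttcaggggccAAGATGGCGgcgcgccgggg
GABPA, chr21:27107404-27107433, plus strand: gcacagcctcCGCCATCTTttcttcgccta
YY1, chr14:100706330-100706454, plus strand: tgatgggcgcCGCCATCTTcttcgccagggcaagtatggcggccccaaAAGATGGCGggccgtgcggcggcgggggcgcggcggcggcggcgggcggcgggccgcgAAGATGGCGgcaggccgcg
YY1, chr14:100704947-100704976, plus strand: cggcggcgcgcTGACGTCAcgcgccgcggg

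The YY1 word AAGATGGCG was found within 600 bp in 4 of the 8 genes, PPARGC1B, PPRC1, GABPA and YY1 (50%). It was found in 5.64% of the 12095 coding genes with a siControl promoter peak and in 4.94% of the peaks. In PPARGC1B, PPRC1 and GABPA its middle lay 34, 30 and 135 bp downstream of the canonical start. In GABPA this was within the 5′ UTR. In PPARGC1B and PPRC1 the 5′ UTR took up the first 33 and 29 bp. The word there ran across the end of the 5′ UTR into the coding sequence and spanned the start codon. In YY1 the downstream siControl peak held the word 3 times, at 863, 901 and 959 bp in the first intron, and 5 of the 11695 siControl promoter peaks (0.0428%) held it at least 3 times. The siAATF peak at this place started further downstream, past the first of these words, and held the other 2. The share of peaks with AAGATGGCG differed little across the deciles of the list by −log10 q, from 3.50% to 7.01%.

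The CREB1 word TGACGTCA was found in the upstream peak of YY1, 519 bp before the canonical start, and in no other peak of the 9 genes. It was held by 3.61% of siControl promoter peaks. The ETS word CCGGAAG was found within 600 bp in GABPA alone (1 of 8). It was found in 26.1% of the 12095 coding genes with a siControl promoter peak and in 22.6% of the peaks. In GABPA it occurred 2 times in the whole peak, 63 bp before and 109 bp after the canonical start, and in ESRRA once, 603 bp before the start. The ERRα word TCAAGGTCA was within 600 bp in 0 of the 8 genes, beside 0.289% of coding genes with a siControl promoter peak and 0.274% of peaks. It lay 642 bp before the start of ESRRA, inside the siAATF peak alone, 3 bp from its edge.

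The rank of each promoter peak was next compared between siControl and siAATF. The strongest promoter peaks of a gene, by −log10 q, overlapped between the lists for 7 of the 9 genes and for 11608 coding genes. PPARGC1A and YY1 were left out of these 7, and the 2 overlapping pairs of YY1 are described on their own. The rank by fold enrichment was lower in siAATF for 4 of the 7 (PPRC1, GABPA, GABPB1 and ESRRA), beside 48.7% of paired coding genes, and higher for 3 (NRF1, PPARGC1B and CREB1). The median change, siAATF minus siControl, was −1.72 points (range −11.1 to 21.3, n = 7 genes). The median over all 11608 genes was 0.203 points, with quartiles at −4.68 and 5.49. The interval of the median over the 7 genes, from its order statistics, was the whole range, with a coverage of 98.4%.

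NRF1 itself was at rank 83.3 in siControl and 86.4 in siAATF, a change of 3.05 points, and 66.0% of paired coding genes had a change of at least this size. By −log10 q its rank was 99.5 and 99.4. GABPB1 moved from rank 90.6 to 88.9 (−1.72 points) and ESRRA from 80.2 to 78.0 (−2.18 points). Changes of at least these sizes were seen in 79.1% and 74.5% of genes. The direction was not the same under the other rank for NRF1 (−0.0519 points by −log10 q) and for ESRRA (0.115 points). For these 3 genes the change of fold enrichment rank was thus smaller than that of most paired genes. Ranks within each list cannot show a change shared by all peaks, and a peak near rank 100 has little room to rise. Whether the amount of NRF-1 at these promoters changed cannot be read from such ranks.

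GABPA was at rank 80.1 in siControl and 73.6 in siAATF (−6.47 points), a size reached by 41.7% of genes. PPRC1 was at 45.9 and 34.7 (−11.1 points), a size reached by 22.3% of genes. By −log10 q both were also lower in siAATF, by −1.56 and −6.87 points. Both siAATF peaks were wider than their siControl counterparts, at 113% and 126% of the siControl width.

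CREB1 moved from rank 71.0 in siControl to 92.3 in siAATF, a change of 21.3 points. It was the 1 gene of the 7 with a change over 20 points, beside 6.42% of paired coding genes. Ranked by −log10 q, CREB1 was at 71.6 and 76.7, a change of 5.08 points that 30.1% of genes reached. The siAATF peak of CREB1 was narrower, at 790 bp beside 986 bp, or 80.1% of the siControl width, and lay wholly within the siControl peak.

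The downstream peak of YY1 moved from rank 27.6 to 50.1, a change of 22.5 points, with a width of 95.6% of siControl. A change of at least this size was seen in 4.62% of paired coding genes. By −log10 q the downstream peak moved from 45.4 to 64.0, 18.6 points, a size reached by 2.95% of paired coding genes. Those genes were paired by their strongest peaks, which leaves out YY1, and this peak was the weaker one of YY1 in siControl. The shares thus do not come from pairs of the same kind. The upstream peak of YY1 was at rank 34.2 and 30.6 by fold enrichment (−3.58 points) and at 50.5 and 53.3 by −log10 q. Of the 10 overlapping pairs, the downstream peak of YY1 had the largest change under both rankings.

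The siControl peak of PPARGC1B was compared with each of the 2 siAATF peaks that it overlapped. With the upstream one, which shared all of its 600 bp, the rank went from 41.0 to 48.4 (7.37 points). With the downstream one, which shared 368 of its 945 bp, it went from 41.0 to 26.8 (−14.2 points). The direction at PPARGC1B therefore depended on which siAATF peak was taken.

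**Figure D4:**
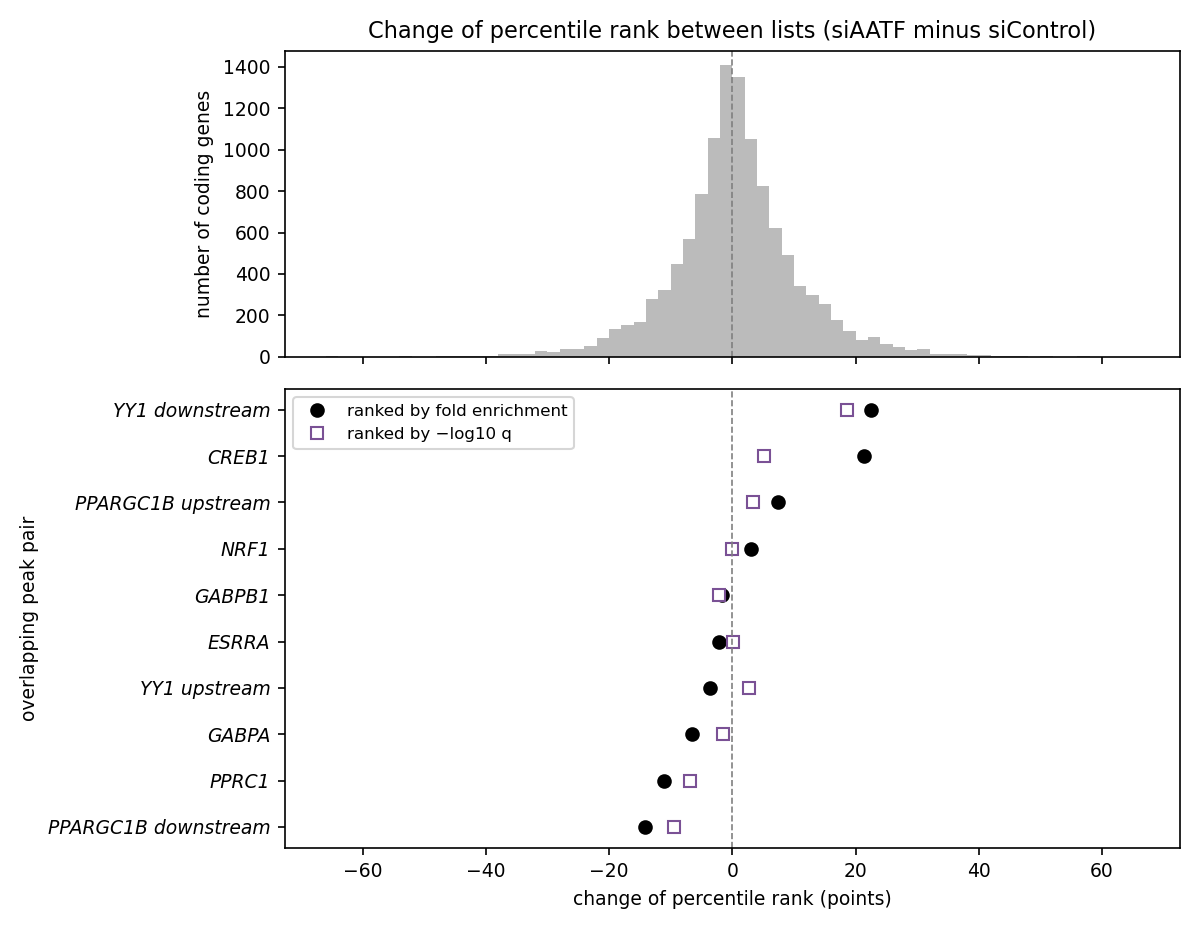
Change of percentile rank, siAATF minus siControl, in points. The upper panel counts the 11608 coding genes with overlapping strongest promoter peaks by change of fold enrichment rank, and the lower panel shows the 10 overlapping pairs of the 9 genes, ranked by fold enrichment (filled circles) or −log10 q (open squares). CREB1 stands at 21.3 and 5.08 points and the downstream peak of YY1 at 22.5 and 18.6 points, while NRF1, GABPB1 and ESRRA lie within 3.05 points of 0.

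Peak width moved with the change of rank across the lists. The pairs were made of the strongest promoter peak of each coding gene in both lists, where these overlapped. Over 10211 distinct pairs, Spearman's rho between the log2 ratio of widths and the change of fold enrichment rank was −0.473, and −0.301 for the change of −log10 q rank. Both YY1 pairs and the downstream PPARGC1B pair were not made of strongest peaks, and are only set beside the width classes below. The points are peaks of the same 2 libraries and are not independent. Where the siAATF peak was at least 15% narrower, as for CREB1 and both PPARGC1B pairs, the median change over 1178 pairs was 8.22 points. CREB1 (21.3 points) and the upstream PPARGC1B pair (7.37 points) had a change of this sign, and the downstream PPARGC1B pair (−14.2 points) had the opposite one. Where it was at least 15% wider, as for PPRC1, the median over 1566 pairs was −6.50 points. Where widths were within 15%, as for NRF1, GABPA, GABPB1, ESRRA and both YY1 pairs, the median over 7467 pairs was 0.357 points. The changes at CREB1 and PPRC1 were larger than the median of their width class, and the part of width in them was not tested. The 22.5 points at the downstream peak of YY1 were found at nearly equal widths, 642 and 614 bp.

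**Figure D5:**
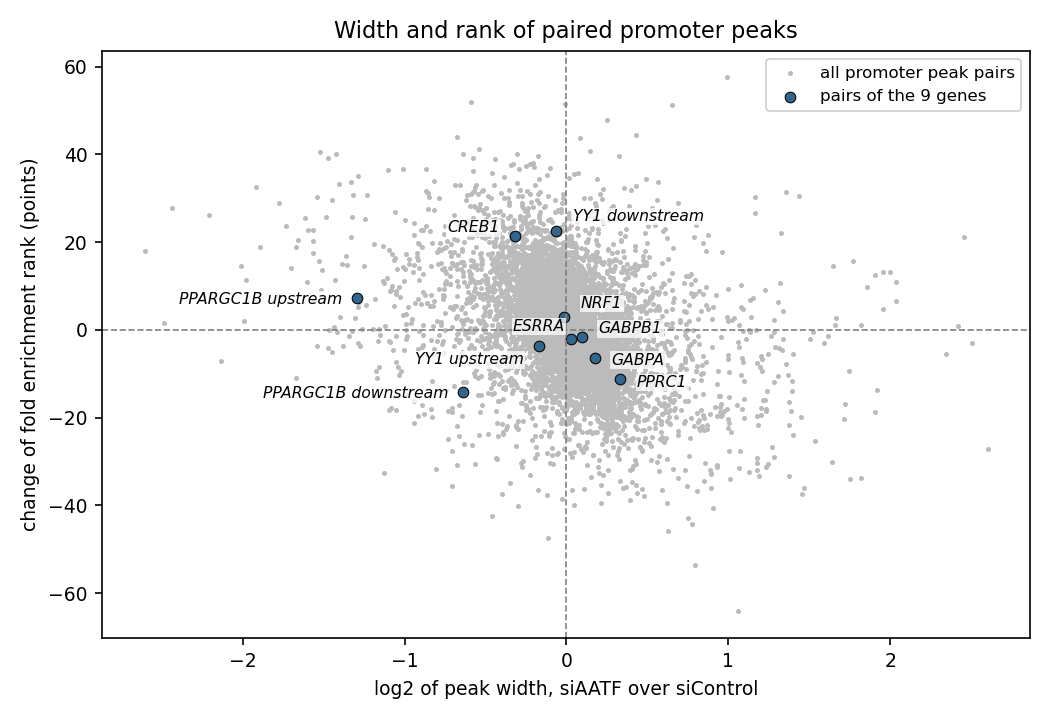
Change of fold enrichment rank in points (y axis, siAATF minus siControl) against the log2 ratio of peak widths, siAATF over siControl (x axis), for 10211 overlapping pairs of strongest promoter peaks (grey) and the 10 pairs of the 9 genes (blue). CREB1 stands at 21.3 points and 80.1% of the siControl width, PPRC1 at −11.1 points and 126%, and the downstream peak of YY1 at 22.5 points and 95.6%.

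Peaks within the genes, away from promoters, were weak. A gene-body peak was called in 2 of the 9 genes in siControl (NRF1 and PPARGC1B, 22.2%), beside 13.1% of coding genes, and in 1 in siAATF (NRF1, 11.1%), beside 14.1%. NRF1 had 2 intronic siControl peaks of 200 bp, chr7:129303066-129303265 and chr7:129304939-129305138, with a −log10 q of 1.37 and 2.07. Its siAATF gene-body peak, chr7:129330354-129330847, had a −log10 q of 1.21 and covered 33 bp of exon. These did not overlap, and the nearest of them were 25215 bp apart. The intronic siControl peak of PPARGC1B, chr5:149185464-149185752, had a −log10 q of 3.08 and met no siAATF peak. All 4 were below the median −log10 q of gene-body peaks, 4.46 in siControl and 4.32 in siAATF.

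To place the 9 genes among related regulators, 50 further genes were listed, made of nuclear receptors and their partners, relatives of CREB1, GABP and NFE2 factors, upstream kinases and deacetylases, and coactivators or corepressors. Of these, 46 had a promoter peak in siControl (92.0%, exact 95% CI 80.8 to 97.8) and 45 in siAATF (90.0%), and in 45 the peaks overlapped. PPARG, the adipogenic nuclear receptor, was the only one with a peak in 1 list alone, in siControl, with a −log10 q of 2.42 and rank 18.3. No promoter peak was called in either list for 4 genes, ESRRB, RXRB, PERM1 and YY2. The nuclear receptor gene ESRRA thus had a far more significant peak than its relatives ESRRB, with none, and ESRRG, with a −log10 q of 2.04 in siControl. The other nuclear receptor genes of the list ran from no peak, at RXRB, to a siControl −log10 q of 78.2 at PPARA, named after its value was seen.

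The strongest 3 of these 50 genes by siControl fold enrichment were MEF2C, a MADS-box factor (rank 99.8 in siControl and 97.7 in siAATF), PRKAA1, a catalytic subunit of AMPK (89.1 and 88.4), and SIRT1, a deacetylase that acts on PGC-1α (87.3 and 88.5). The order by −log10 q was another one. In siControl MEF2C had a −log10 q of 37.6, while CRTC1, named after the values were seen, had 103, above the 95.5 of NRF1. By fold enrichment rank, the largest changes were at MED1, a Mediator subunit (32.3 and 68.0), SP1, a GC-box factor (74.6 and 41.7), and TFEB, a lysosomal and mitochondrial gene regulator (45.0 and 63.1). By −log10 q the ranks were 28.8 and 52.9 for MED1, 63.8 and 47.7 for SP1, and 72.6 and 79.4 for TFEB. Their peak widths also differed between siControl and siAATF, at 522 and 380 bp for MED1, 664 and 1234 bp for SP1, and 1700 and 1088 bp for TFEB. The median change over the 44 with paired peaks was 0.324 points, 21 being lower and 23 higher, and 2 changed by over 20 points. GCGCANGCG was found within 600 bp in 12 of 46 (26.1%) and AAGATGGCG in 10 of 46 (21.7%), beside 25.2% and 5.64% of coding genes with a siControl promoter peak.

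Lastly, the coding genes most like NRF1 in occupancy were sought by the Euclidean distance over 4 ranks (fold enrichment and −log10 q in each list) among 11607 other genes. The nearest were MTHFSD at a distance of 1.05 points, RCBTB2 at 1.87 and TMEM170B at 1.97. MTHFSD had ranks of 84.2 and 86.2 by fold enrichment and 98.9 and 99.3 by −log10 q.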

How the data were processed

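NRF-1 ChIP-seq of U251 cells was analysed, with 1 list for siControl and 1 for siAATF. Per the study's methods and the submitters' processing notes, libraries were made by ChIPmentation, in which Tn5 transposase adds the adapters, aligned to hg19 with Bowtie2, and called by MACS2 as broad peaks within an ATAC-seq pipeline at its defaults. Such a pipeline may treat reads as transposase cut sites, which bears on peak edges and widths. No input or IgG library was named. The work was described as done in duplicate, but whether replicates were pooled was not given in the sources used here. Positions, the fold enrichment (a ratio over the local background), the −log10 p and the −log10 q were used as deposited by the authors, and the authors' deposited display score was left out. Depth was unknown, so no floor in reads could be given.

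Ranks, overlaps of at least 1 bp, exact word matches and exact intervals were computed with Python 3.11.15, numpy 2.4.6, pandas 2.3.3, scipy 1.17.1 and pysam 0.24.0, and figures drawn with matplotlib 3.10.9. Where a gene had several promoter peaks, the one with the highest −log10 q was used. All peaks on chromosomes 1 to 22, X and Y (17882 and 18332) ended within the assembly, while 132 and 122 lay elsewhere. The steps were tested on simulated data. The 9 genes and the 50 regulators were chosen with earlier results of these data known. All 9 were to be named, with the regulators in 1 list only, the 3 of highest siControl rank and the 3 of largest change, and the 3 genes most like NRF1.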

Additional observations from a re-analysis of the deposited data

How the results depend on the processing

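No paired analysis was possible because each condition had 1 list and no test was made. Of 37 alternatives for counts and medians, 34 changed the value little. With a −log10 q of at least 5, gene-body peaks were found in 0 genes in siControl and 0 in siAATF, and PPARGC1A lost its siAATF promoter peak (8 of 9 genes). With any base at its centre, the NRF-1 word was in the siControl promoter peaks of 4 genes in place of 1. With reciprocal overlap of 50%, 7 genes were shared in place of 8, since PPARGC1B was lost. Narrower or wider promoter windows, or canonical transcripts alone, left 8 and 9 genes with a promoter peak. The median change of rank ran from −2.78 to −0.0519 points over the alternatives, and 4 of the 7 genes were lower in each of the planned ones in which they were counted, which left out the restriction to chromosomes 1 to 22 and X. Pairing by overlap, chosen after seeing the data, added YY1, with a median of −1.95 and 5 genes lower. For single genes, 10 of 14 alternatives moved the change of rank by more than the binomial interval of the ranks, and the sign turned by −log10 q for NRF1 (−0.0519) and ESRRA (0.115). Depth was unknown, and its part in weak peaks such as that of PPARGC1A was not tested.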

Other observations

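Beside YY1, the word AAGATGGCG occurred 3 times in the siControl promoter peaks of FBXL19, PCIF1, CCDC174 and the shared promoter of HCFC1 and TMEM187. These genes were chosen after their values were seen. HCFC1, a cofactor of cell cycle transcription, was among the 50 regulators and had a −log10 q of 44.7 at a fold enrichment of 4.89 (rank 35.3). PCIF1 had a −log10 q of 90.9, CCDC174 46.5, and FBXL19 2.52, so significance differed widely among peaks with the repeated word. Promoter peaks with at least 2 such words numbered 24 of 11695 (0.205%).

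The 2 rankings differed in how far they moved between the lists. Over the 10211 overlapping pairs of strongest promoter peaks, the median size of the change was 5.18 points by fold enrichment and 2.73 points by −log10 q. Changes over 20 points were found in 6.55% of pairs by fold enrichment and in 2.28% by −log10 q. Of the pairs at the 9 genes, CREB1 passed 20 points by fold enrichment alone, and the downstream peak of YY1 passed it by fold enrichment and stood at 18.6 points by −log10 q.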
